A study of Mus musculus with 18 samples.

Results

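The chemokine system of 18 mouse mammary tumors was described gene by gene. Its members were the protein-coding genes whose symbols carry a chemokine ligand or receptor stem (Ccl, Cxcl, Xcl, Cx3cl, Ccr, Cxcr, Xcr, Cx3cr, Ackr) followed by a number, which gave 66 genes, 42 ligands and 24 receptors, of 57126 genes in the deposited table. The rule reads the symbol alone. Of the 66, 52 (32 ligands and 20 receptors) passed the filter on low counts in at least 1 comparison and 14 never did. Of those 14, 5 had no count in any tumor. These 5, Ccl21b, Ccl21d, Ccl21e, Ccl21f and Ccl27b, are close copies of Ccl21a and Ccl27a, so the counts of Ccl21a and Ccl27a are uncertain. The other 9 reached at most 243 counts in a tumor.

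Chemokines are small secreted proteins that draw cells along a gradient. They bind receptors with 7 membrane-spanning helices, most of which signal through an inhibitory G protein, while atypical receptors take ligands up without that signal. Ligands made by tumor, stromal or immune cells bring in monocytes through Ccr2, macrophages through Ccr1, neutrophils through Cxcr2, activated T cells through Cxcr3, and lymphocytes of lymphoid tissue through Ccr7 and Cxcr5. In mammary tumors the Ccr2 route is best known for supplying macrophages.

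The tumors arose in female F1 hybrid mice of BALB/c and C57BL6/J after adenovirus with Cre recombinase was injected into the mammary gland at 10 to 12 weeks of age. Recombination removed wild-type Trp53 in mammary ductal epithelium and left 1 mutant allele in 7 MaP R172H/- tumors (7 mice) and 5 MaP R245W/- tumors (5 mice), and no functional allele in 6 MaP -/- tumors (4 mice). Stroma and immune cells of all 3 groups kept wild-type Trp53. A Rosa26LSL-TdTomato/+ allele was carried by 3 MaP R172H/-, 3 MaP R245W/- and 0 MaP -/- tumors. Among the MaP -/- tumors, JM663-T1 and JM663-T2 shared a mouse, as did JM833-T1 and JM833-T2. The MaP R172H/- libraries were read on a HiSeq 4000 as pairs of 76 nt and all others on a NovaSeq 6000 as pairs of 100 nt, so genotype and platform cannot be told apart in any comparison with MaP R172H/-. The study classed every MaP R172H/- tumor as a nonmetaplastic adenocarcinoma, either luminal B or HER2-enriched. It classed every MaP R245W/- and MaP -/- tumor as triple-negative. Genotype and tumor subtype therefore cannot be told apart in these comparisons either. The time from injection to tumor, which differed between mice, was not used here. Tumors are named as in the labels. For JM779 and JM836 the study marks T2 as sequenced where the labels name T1, and in 1 place it has YZ17 where they have YZ7.

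Libraries held 23113578 to 37365062 counts. Trp53 was measured at 9.41 to 21.6 CPM (counts scaled to the library size, itself adjusted by the TMM method) in the MaP -/- tumors and at 41.3 to 50.1 CPM in 6 of the 7 MaP R172H/- tumors. The library labelled YZ11 held 10.8 CPM, within the MaP -/- range. Trp53 was higher in MaP R172H/- than in MaP -/- tumors (log2 fold change 1.58, edgeR FDR 0.00794) and did not pass in MaP R245W/- tumors (0.95, FDR 0.426). Among the MaP R245W/- tumors, JM1564, JM1126 and JM1133 held 27.0, 27.6 and 58.9 CPM, and JM1233 and RM0014 held 11.4 and 9.08 CPM, so Trp53 did not separate the 3 libraries labelled YZ11, JM1233 and RM0014 from the MaP -/- tumors. Results are given with and without these 3 where a call depends on them. Epithelial markers were detected in every tumor, at a summed level of 153 CPM in JM779-T1, 372 CPM in YZ7, 484 CPM in JM1233 and 1121 to 7639 CPM in the other 15. In bulk tumors, fewer cells of a type and less RNA per cell cannot be told apart.

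Sequence is shown for the promoters of members that were high in the same tumors, since NF-kappaB sites lie at the start of several chemokine genes. RefSeq (GRCm38.p6) windows of 300 bases, from 250 before to 50 after a gene's start, were matched by symbol for 48 of the 66 members (57 windows). The Cxcr2 ligands Cxcl1, Cxcl2 and Cxcl3 held the same 10 bases, GGGAATTTCC, within 97 bases before the start. The windows printed are 30 bases, read 5′ to 3′ on the gene's strand with positions in GRCm39 from an exact match of the window, and capitals mark the match to the NF-kappaB consensus (kappaB).

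Cxcl1, chr5:91039023-91039052, plus strand: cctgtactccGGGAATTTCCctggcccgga
Cxcl2, chr5:91051651-91051680, plus strand: cctgagctcaGGGAATTTCCctggtccccg
Cxcl3, chr5:90933877-90933906, plus strand: gagctgcgggGGGAATTTCCccagcccggg
Cxcl10, chr5:92496888-92496917, minus strand: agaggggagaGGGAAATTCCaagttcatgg
Cxcl10, chr5:92496833-92496862, minus strand: tcggtttacaGGGGACTTCCctcgggttgc
Ccr1, chr9:123768784-123768813, minus strand: ctttagaaggGGGAGGCTCCtcactgacca

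Cxcl10, an interferon-inducible ligand, is shown because its window held 2 kappaB matches and, farther upstream, a match to the core of the interferon-stimulated response element (ISRE), in capitals in the window at chr5:92496942-92496971 on the minus strand, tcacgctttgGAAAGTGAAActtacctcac. Ccr1 is shown because, of the 4 genes lower in MaP R172H/- tumors that have a window (Ccl6, Ccl8, Ccr1 and Ccr2), it is the 1 with a kappaB match. Ccl2, Ccl7 and Cxcl5 had no window in the table. With both strands searched, a kappaB match stood in 22.8% of member windows (13 of 57) and in 8.46% of all 32851 windows. The gamma-activated site TTCNNNGAA stood in 7.02% of member windows and 8.30% of all, and the ISRE core GAAANNGAAA in 5.26% and 3.44%. A match is a run of letters and not a measured binding site.

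Levels per length set the members in order. By median RPKM (CPM per kilobase of exon) over the 18 tumors, Ccl8 was the highest ligand at 31.3 RPKM, followed by the epithelial and stromal ligands Cxcl14 at 18.9 RPKM and Cxcl16 at 16.2 RPKM, then Ccl6 at 15.2 RPKM and Ccl12 at 11.3 RPKM. Among receptors Cxcr4, the receptor of Cxcl12, led at 30.2 RPKM, followed by Ccr1 at 15.9 RPKM, Cx3cr1 at 10.4 RPKM and Ccr2 at 6.81 RPKM. Neighbors in both orders overlapped across tumors, with Ccl8 itself running from 8.81 to 283 RPKM. The members varied more between tumors than genes at large. The median within-group SD of log2 CPM was 1.3 for the 32 tested ligands, 0.96 for the 20 tested receptors and 0.58 for all 22481 genes tested. Levels of members and of all genes were not matched for this. Some tested members were low, such as Ackr1 and Ccl17 at medians of 0.268 and 0.290 CPM.

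**Figure D1:**
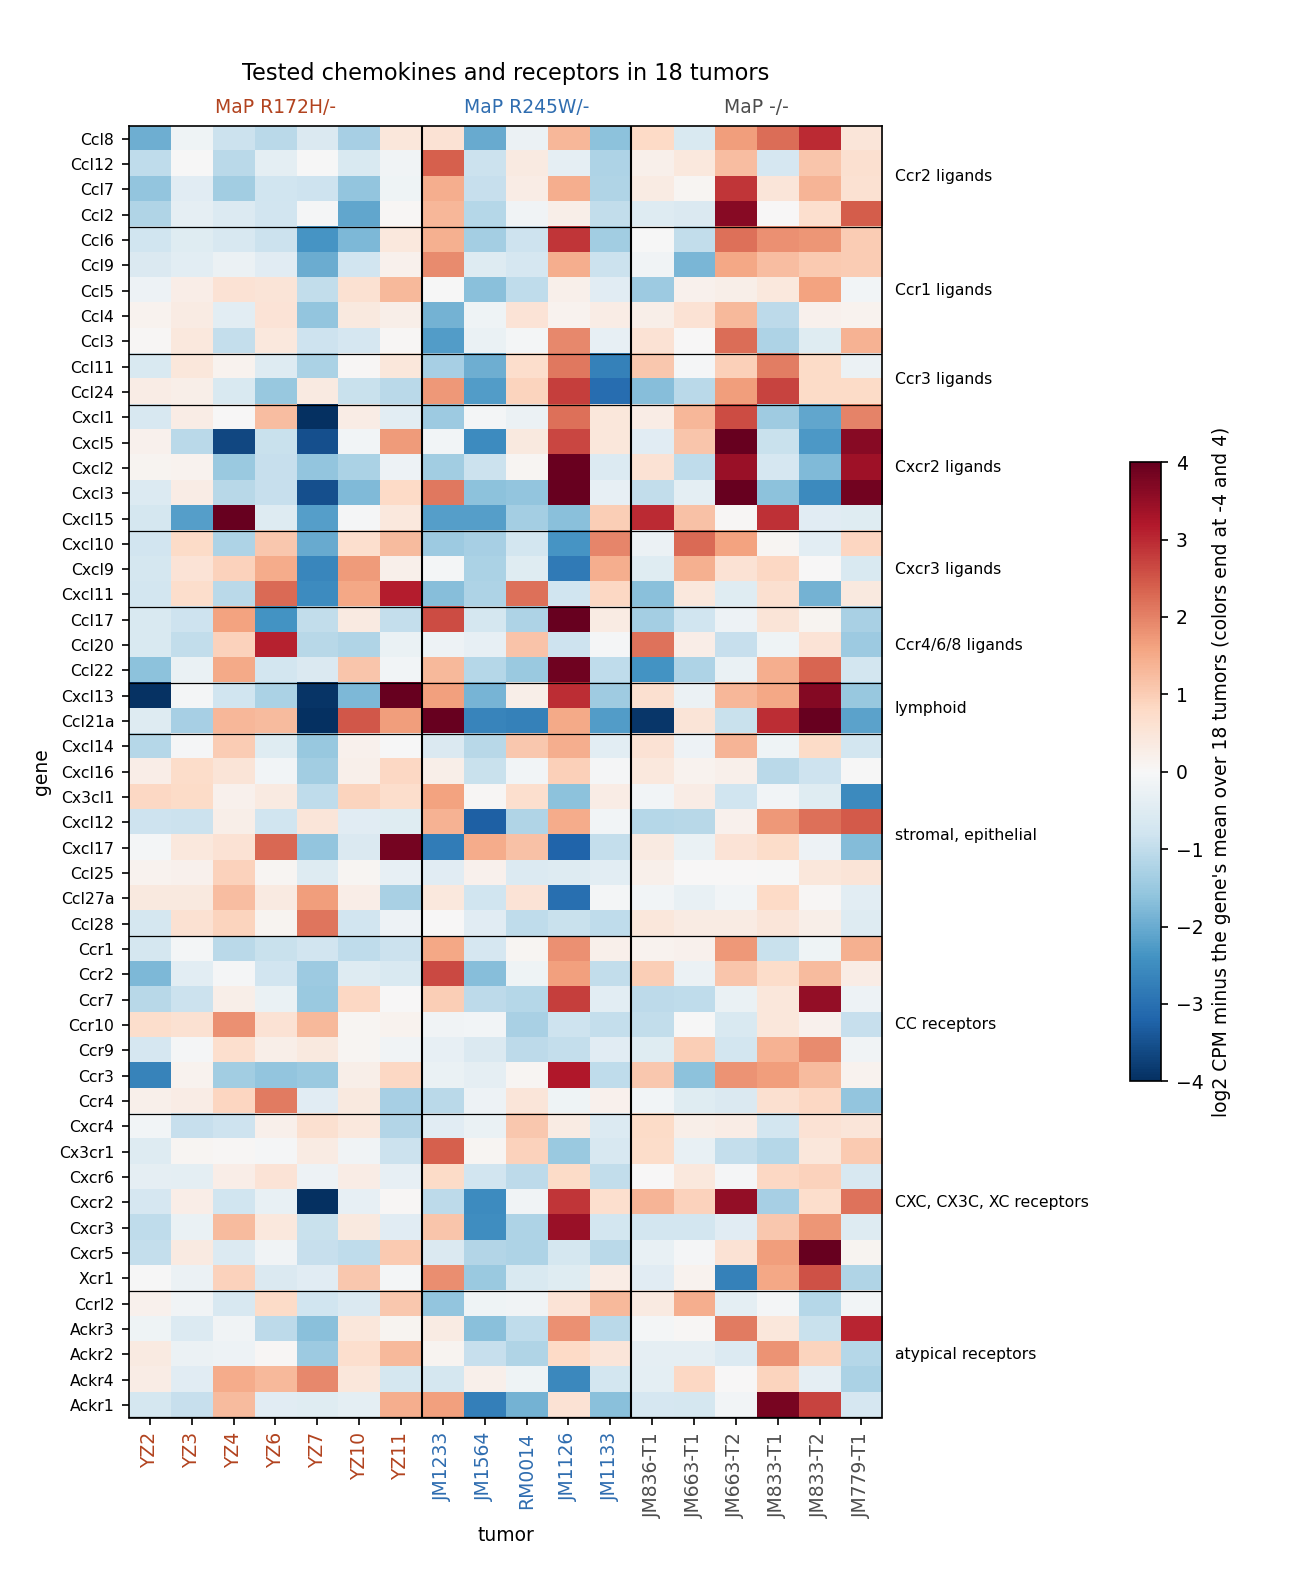
Log2 CPM of tested chemokines and receptors (rows, grouped by role) in the 18 tumors (columns, grouped by genotype), each gene centered on its mean over all tumors, with red above and blue below that mean. The 7 MaP R172H/- columns are mostly pale or blue in the rows listed as Ccr2 and Ccr1 ligands. JM1126, JM663-T2 and JM779-T1 are red in the Cxcl1, Cxcl2, Cxcl3 and Cxcl5 rows. JM833-T2 is red in the rows of Cxcl13, Ccl21a, Ccr7 and Cxcr5.

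The first question was which chemokine genes differ between MaP R172H/- and MaP -/- tumors. In MaP R172H/- tumors 7 members were lower and 0 higher at FDR below 0.05 (edgeR quasi-likelihood test, adjusted over all 20954 genes tested), of 49 members tested. The 7 included the ligands Ccl2, Ccl6, Ccl7 and Ccl8 and the receptors Ccr1 and Ccr2. Of all genes tested, 4.73% were lower and 3.67% higher, against 7 and 0 of the 49 members. All 4 ligands fell beyond a log2 fold change of -2, which 1.05% of all genes did. Over the 30 ligands and 19 receptors tested the median log2 fold change was -0.83 and -0.67, beside 0.0027 over all genes, and 36 of the 49 members lay below 0. At an unadjusted p below 0.05 there were 19 lower and 2 higher, where 13.1% of all genes were lower and 11.6% higher. The DESeq2 Wald test, the study's tool, called 16 members lower and 1, Ccr10, higher, beside 6.59% and 4.81% of the 30101 genes to which it gave an adjusted p. The 16 include Cxcr1, a neutrophil receptor that did not pass the filter for the edgeR test in this comparison.

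The ligands listed as monocyte-attracting (Ccl2, Ccl7, Ccl8 and Ccl12), with the receptor Ccr2, held 4 of the 7 calls. Ccl8 is placed here by the listing alone, and the receptor it acts on was not tested. Ccl7, a ligand of Ccr2 and other CC receptors, was 2.83 to 7.71 CPM with a median of 4.87 CPM in the 7 MaP R172H/- tumors and 9.18 to 63.6 CPM with a median of 12.8 CPM in the 6 MaP -/- tumors. Every MaP R172H/- tumor lay below every MaP -/- tumor, which held for 2.62% of all genes and for this member alone. Its log2 fold change was -2.21 ± 0.46 (SE) with an edgeR FDR of 0.0111. In the 5 MaP R245W/- tumors Ccl7 was 24.1 CPM in JM1233, 23.9 in JM1126, 10.7 in RM0014, 4.60 in JM1564 and 3.70 in JM1133.

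Ccl8, a monocyte chemoattractant protein made by macrophages, ran from 4.70 through a median of 10.2 to 25.2 CPM in MaP R172H/- tumors and from 12.1 through 45.7 to 146 CPM in MaP -/- tumors. The groups overlapped, with 4 of 7 MaP R172H/- tumors below all MaP -/- tumors, and the log2 fold change was -2.29 ± 0.53 (edgeR FDR 0.0174). Ccl2, the main monocyte attractant, ran from 2.71 through 7.90 to 11.9 CPM and from 7.73 through 15.2 to 145 CPM in the same groups. The MaP -/- values of Ccl2 were set apart by JM663-T2 at 145 CPM and JM779-T1 at 62.0 CPM, against 7.73 to 18.6 CPM in the other 4. Its log2 fold change was -2.43 ± 0.68 (FDR 0.0434), and without JM663-T2 it was -1.48 (FDR 0.134). Ccl12, the mouse relative of Ccl2, ran from 4.53 to 9.56 CPM against 6.0 to 22.5 CPM and missed the threshold with a log2 fold change of -1.01 (edgeR FDR 0.0554).

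Ccr2, the receptor that marks inflammatory monocytes, was 15.3 to 51.8 CPM with a median of 35.0 CPM in MaP R172H/- tumors and 45.3 to 126 CPM with a median of 96.4 CPM in MaP -/- tumors. Here 6 of 7 MaP R172H/- tumors lay below all MaP -/- tumors and only YZ4 reached into their range. The log2 fold change was -1.45 ± 0.30, with an edgeR FDR of 0.0101. In MaP R245W/- tumors Ccr2 spanned both groups and more, at 332 CPM in JM1233, 166 in JM1126, 46.8 in RM0014, 26.6 in JM1133 and 16.3 in JM1564.

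Ccr1, a receptor of monocytes, macrophages and neutrophils, was lower as well. It was 23.5 to 46.5 CPM with a median of 27.4 CPM in MaP R172H/- tumors and 26.8 to 164 CPM with a median of 54.7 CPM in MaP -/- tumors. The ranges overlapped, with 3 of 7 MaP R172H/- tumors below all MaP -/- tumors. Its log2 fold change was -1.41 ± 0.38 (edgeR FDR 0.0344), and without JM663-T2 it was -1.06 (FDR 0.0872).

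Of the 5 macrophage inflammatory ligands listed with Ccr1, 1 was called. Ccl6, a mouse macrophage chemokine that binds Ccr1, was 7.85 to 54.5 CPM with a median of 23.6 CPM in MaP R172H/- tumors and 20.7 to 189 CPM with a median of 111 CPM in MaP -/- tumors, a log2 fold change of -2.01 ± 0.51 (edgeR FDR 0.0283). Its neighbor Ccl9, of the same receptor, had a median of 31.1 CPM against 86.4 CPM and a log2 fold change of -1.29 (FDR 0.0893). The T cell attractants Ccl3, Ccl4 and Ccl5 had log2 fold changes of -1.03, -0.30 and 0.06 and none passed (edgeR FDR 0.249, 0.680 and 0.955). Ccl6 and Ccl9 overlap the antisense gene E230016K23Rik, and whether the counting used strand is not given in the sources used here.

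**Figure D2:**
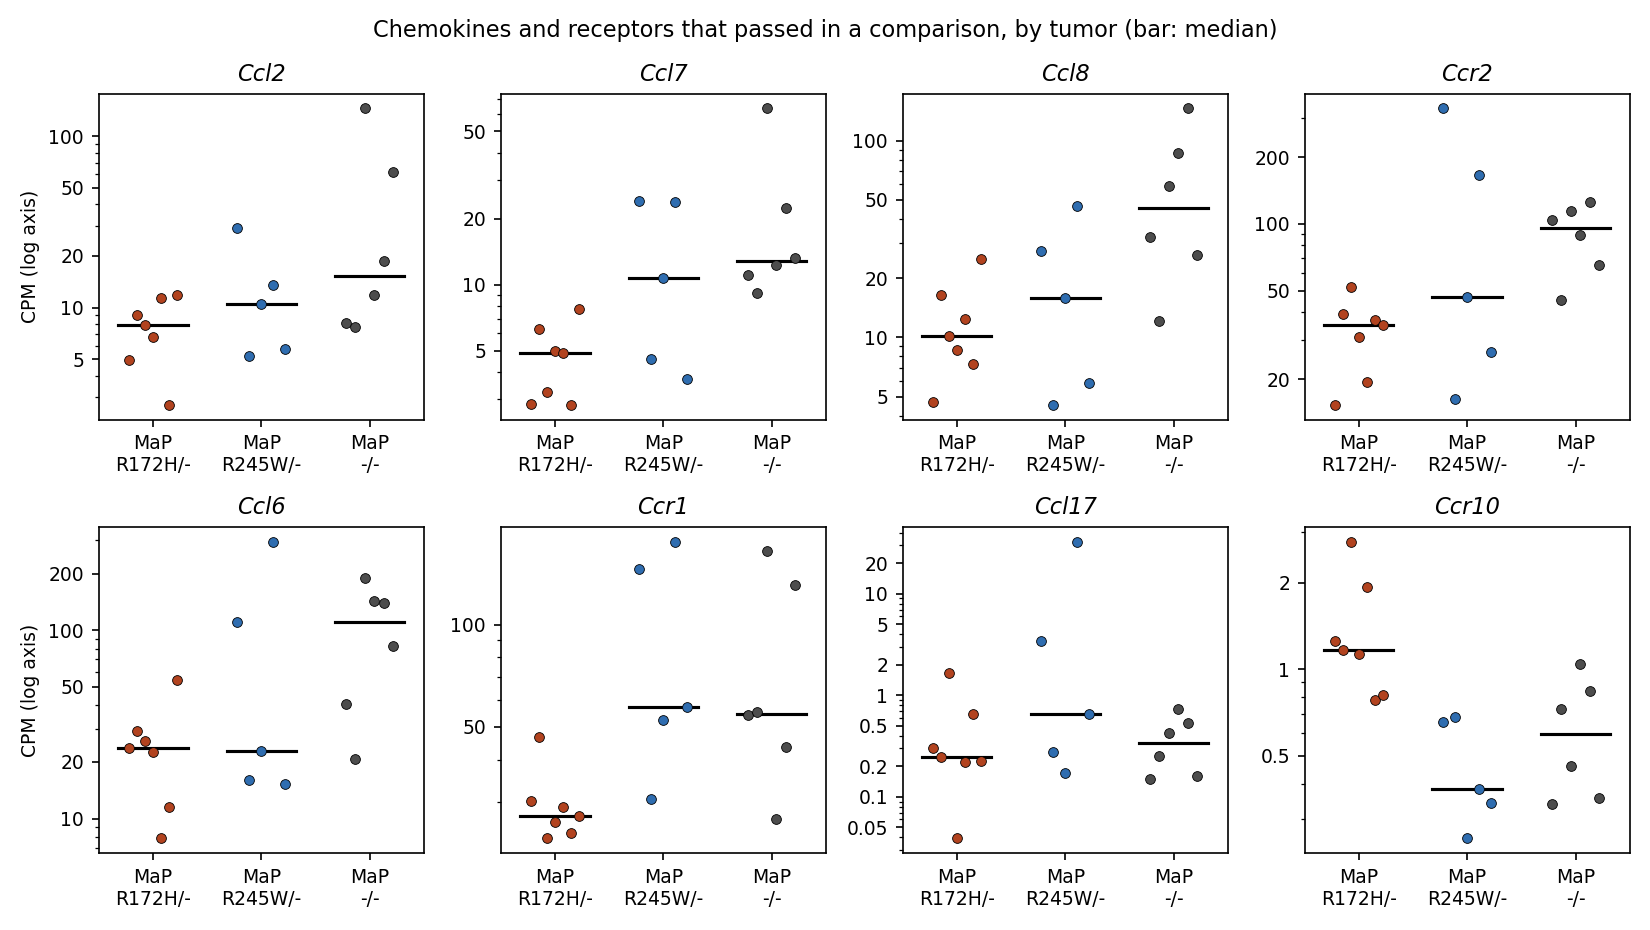
CPM on a log axis of Ccl2, Ccl7, Ccl8, Ccr2, Ccl6, Ccr1, Ccl17 and Ccr10 in each tumor (points) of the 7 MaP R172H/-, 5 MaP R245W/- and 6 MaP -/- tumors, with bars at group medians. For Ccl7 the MaP R172H/- points end at 7.71 CPM and the MaP -/- points start at 9.18 CPM, while the MaP R245W/- points spread over both ranges.

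Leaving out 1 tumor at a time, Ccl7, Ccl8 and Ccr2 passed in all 13 fits, Ccl6 in 7, Ccr1 in 6 and Ccl2 in 4. Without JM663-T2, Ccl7, Ccl8 and Ccr2 were the 3 members called. Without YZ2, YZ6 or YZ10 4 were called, with Ccl2, Ccl6 and Ccr1 lost. Without YZ11, whose Trp53 was in the MaP -/- range, 5 were called, with Ccl2 and Ccr1 missing the threshold at log2 fold changes of -2.58 and -1.41 (edgeR FDR 0.0587 and 0.0589). With counts of 1 mouse summed, all 7 passed and Cxcl2 was added.

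All 5 leukocyte markers had log2 fold changes below 0 in MaP R172H/- against MaP -/- tumors. The summed CPM of 5 leukocyte markers was 191 to 366 in MaP R172H/- and 378 to 1084 in MaP -/- tumors, without overlap, and 2 of the 5 were lower at FDR below 0.05. Macrophage markers summed to 1050.3 to 1207 CPM against 868 to 2509.6 CPM, with 2 of 8 lower and 3 of 8 with a log2 fold change above 0. Neutrophil markers summed to 7.67 to 80.6 CPM against 44.6 to 689.9 CPM, with 3 of 5 tested lower. Fibroblast markers had 3 of 5 lower, endothelial markers 1 of 5, T and NK cell markers 1 of 9, and B cell, dendritic cell, adipocyte and epithelial markers 0. Log2 fold changes above 0 were found for 1 fibroblast marker, 2 of 6 dendritic cell markers and all 7 epithelial markers. Of all genes tested, 4.73% were lower at this FDR. No listed marker was at 0 in all tumors. The part of these cell types in the chemokine values was not tested.

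The lower members named above lie in 2 gene clusters of the genome (GRCm39). On chromosome 11, 11 ligand genes from Ccl2 (ENSMUSG00000035385.6) to Ccl4 (ENSMUSG00000018930.4) fill 81926397 to 83555509, and they hold Ccl2, Ccl7, Ccl8 and Ccl6, the 4 called of 10 tested. Their median log2 fold change was -1.16, with 9 of 10 below 0. Among the 31 other tested genes between them 0 were lower and 1 was higher, with a median of -0.01. On chromosome 9, a run of 11 receptor genes that starts with Cx3cr1 (ENSMUSG00000052336.9) at 119877749 holds Ccr1 and Ccr2, and all 9 tested lay below 0, with a median of -0.70. The 72 other tested genes between them had a median of 0.17, with 3 lower and 1 higher. The ligand cluster of chromosome 5, from Cxcl5 to Cxcl11, had 0 of 7 tested members called. Their median log2 fold change was -1.20, with 5 of 7 below 0. The 23 other tested genes between them had a median of -0.41, with 17 below 0, 4 lower and 1 higher.

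The neutrophil ligands were uneven between tumors. Cxcl5, made by epithelium, was 237 CPM in JM663-T2, 72.7 in JM779-T1 and 37 in JM1126, and 0.397 to 18.9 CPM in the other 15 tumors. Cxcl1 was highest in the same 3 tumors at 88.6, 57.4 and 66.2 CPM, with 0.614 to 36.2 CPM in the rest and its lowest value in YZ7. These 3 tumors were 2 MaP -/- and 1 MaP R245W/-.

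Cxcl2, Cxcl3 and the receptor Cxcr2 were chosen for description after their values were seen. Cxcl2 was 34.9 CPM in JM663-T2, 33.6 in JM779-T1 and 49.8 in JM1126 and at most 4.77 CPM elsewhere. Cxcl3 was 17.1, 11.5 and 36.7 CPM in these tumors and at most 3.36 CPM elsewhere, with no count in YZ7. Cxcr2, the neutrophil receptor, was 75.4, 29.6 and 47.1 CPM in them and at most 16.8 CPM in the others. The 3 ligands whose promoters share the 10 bases printed above, with Cxcl5 and Cxcr2, had the same 3 highest tumors. So did Ccl3 and Ackr3, and the promoter windows of Cxcr2, Ccl3 and Ackr3 held no kappaB match. A link between the shared bases and these levels was not tested. Cxcl15, the fifth ligand listed with Cxcr2 and likewise named after its values were seen, did not have these 3 highest tumors. It was 14.5 CPM in YZ4 and at most 2.52 CPM elsewhere, and 0.0319, 0.263 and 0.161 CPM in JM1126, JM663-T2 and JM779-T1.

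No gene of this axis passed in the comparison of MaP R172H/- with MaP -/- tumors. The log2 fold changes were -3.37 ± 1.22 for Cxcl5, -3.30 ± 1.21 for Cxcl3, -2.63 ± 0.84 for Cxcl2, -1.20 ± 0.77 for Cxcl1 and -2.38 ± 0.76 for Cxcr2, with edgeR FDR of 0.105, 0.111, 0.0693, 0.356 and 0.0714. The DESeq2 test called Cxcl2, Cxcl3, Cxcl5 and Cxcr2. Neutrophil markers summed to 689.9 CPM in JM663-T2, 364 in JM1126 and 363 in JM779-T1, the 3 highest of the 18 sums, and their part was not tested.

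**Figure D3:**
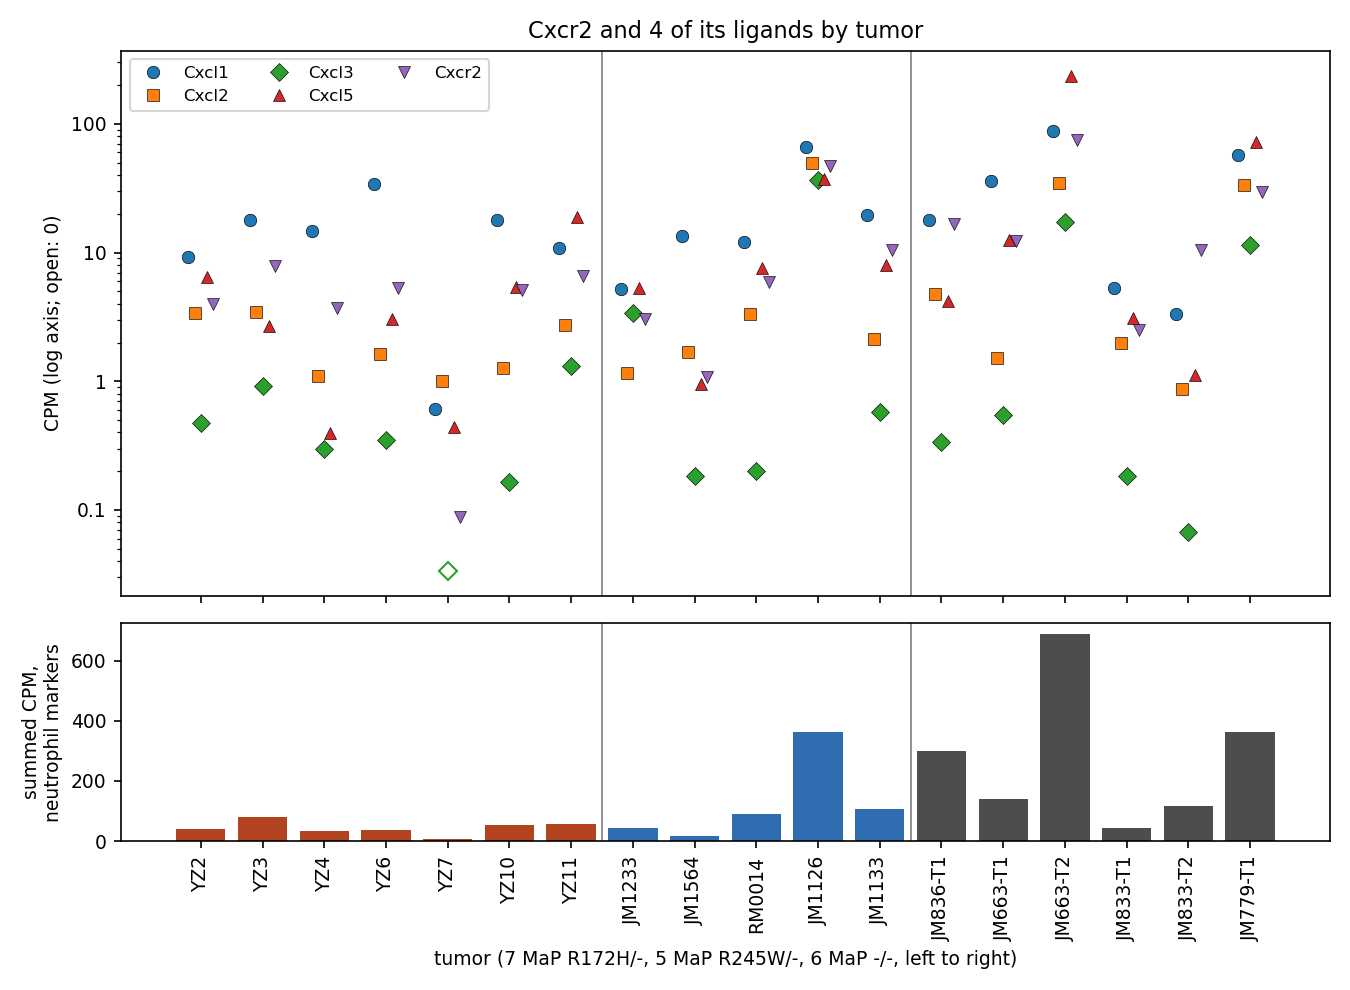
CPM on a log axis of Cxcl1, Cxcl2, Cxcl3, Cxcl5 and Cxcr2 in each tumor (upper panel, open symbol at the floor for a value of 0) and summed CPM of 6 neutrophil markers (lower panel, bars). In JM1126, JM663-T2 and JM779-T1 all 5 genes stand at or above 11.5 CPM.

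None of the interferon-inducible Cxcr3 ligands passed. Cxcl10 was 4.78 to 47.6 CPM in MaP R172H/-, 3.77 to 75.8 CPM in MaP R245W/- and 14.6 to 95.4 CPM in MaP -/- tumors, highest in JM663-T1 and JM1133 and lowest in JM1126, which was high in Cxcl1. Cxcl9 had medians of 15.6, 7.53 and 13.3 CPM in the 3 groups. The 3 ligands had a median log2 fold change of 0.25 in MaP R172H/- and -0.50 in MaP R245W/- tumors against MaP -/-, with 0 called in either.

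Ligands of stroma and epithelium lay on both sides of 0. Of 8 tested, 5 lay above 0 in MaP R172H/- tumors, among 13 of all members that did, and 0 were called (median log2 fold change 0.43). Cxcl16, the membrane-bound ligand of Cxcr6, was 28.5 to 131 CPM in MaP R172H/- tumors and 34.8 to 99.2 CPM in MaP -/- tumors (log2 fold change 0.41 ± 0.33, edgeR FDR 0.471). Cxcl14, an epithelial ligand, had medians of 68.1 and 83.3 CPM (FDR 0.487). Cx3cl1, the ligand of Cx3cr1, named after its values were seen, had medians of 60.0 and 30.2 CPM and a log2 fold change of 0.92 ± 0.38 (FDR 0.157). Its receptor Cx3cr1 had medians of 46.7 and 52.8 CPM (FDR 0.621).

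The eosinophil attractants Ccl11 and Ccl24 had log2 fold changes of -1.02 and -1.55 (edgeR FDR 0.120 and 0.151). Ackr3, the atypical receptor of Cxcl12, was 7.10 to 31.6 CPM in MaP R172H/- tumors and 12.3 to 189 CPM in MaP -/- tumors, with JM779-T1 highest, and did not pass (log2 fold change -1.74 ± 0.60, FDR 0.0893). Ccrl2, which presents chemerin, had a log2 fold change of -0.07 (FDR 0.933), and Cxcr4 one of -0.43 (FDR 0.424). Of the 4 atypical receptors tested 0 were called by edgeR, and DESeq2 called Ackr3. Ackr1, the chemokine-binding receptor of venules, was tested in the 2 comparisons with MaP R245W/- tumors, passed in neither, and was highest in JM833-T1 at 6.52 CPM and JM833-T2 at 2.96 CPM, against 0 to 1.40 CPM elsewhere. It overlaps the protein-coding gene Cadm3 on its own strand.

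A few members peaked in MaP R172H/- tumors. Ccl20, the Ccr6 ligand of mucosal epithelium, was 5.28 CPM in YZ6 and at most 2.78 CPM elsewhere, and Ccr4, the receptor of Ccl17, was 1.60 CPM in YZ6 and at most 0.661 CPM elsewhere. Ccl27a, the keratinocyte ligand of Ccr10, was 7.5 CPM in YZ7 and 5.55 CPM in YZ4 and at most 4.03 CPM elsewhere. Their log2 fold changes from MaP -/- tumors were 0.41, 0.76 and 0.66 (edgeR FDR 0.808, 0.448 and 0.330). Cxcl11 and Cxcl17, named after their values were seen, were both highest in YZ11, at 23.2 and 21.8 CPM, with medians of 4.24 and 1.98 CPM in MaP R172H/- and 2.62 and 1.56 CPM in MaP -/- tumors. In contrast Cxcl12, the stromal ligand of Cxcr4 and also named after its values were seen, had a median of 24.4 CPM in MaP R172H/- and 76.1 CPM in MaP -/- tumors (log2 fold change -1.66 ± 0.56, FDR 0.0859).

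MaP R245W/- tumors were compared with the MaP -/- tumors in the same way. The edgeR test called 0 of the 50 members tested, and 0% of all 21452 genes, and 6 members were at an unadjusted p below 0.05, 1 higher and 5 lower, where 11.8% of all genes were. The DESeq2 test called 1 higher, Ccl17, and 0 lower, where it called 0.676% and 1.03% of all genes. The median log2 fold change was -0.48 for 31 ligands and -0.36 for 19 receptors, beside 0.02 for all genes. These medians moved with single tumors, to -0.04 for ligands without JM663-T2, to -0.15 for receptors without JM833-T2, and to -0.80 and -0.55 without JM1126. The 2 comparisons share their MaP -/- tumors.

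The 6, of 50 tested and so near the 11.8% of all genes, were Ccl17, Ccl28, Ccl25, Ccl8, Cxcr5 and Ccr9. Ccl17, the Ccr4 ligand of dendritic cells, was 32.5 CPM in JM1126, 3.39 in JM1233, 0.649 in JM1133, 0.278 in JM1564 and 0.172 in RM0014, against 0.150 to 0.738 CPM in MaP -/- tumors. Its log2 fold change of 4.26 ± 1.26 (edgeR FDR 0.360) was 1.56 without JM1126. Cxcr5, the B cell receptor of Cxcl13, was 0.201 to 0.357 CPM in every MaP R245W/- tumor and 0.451 to 19.8 CPM in MaP -/- tumors, without overlap (log2 fold change -3.93 ± 1.14, FDR 0.360). The value of 19.8 CPM was JM833-T2, and the other 5 ended at 1.97 CPM. Without JM833-T2 the log2 fold change was -1.76. Cxcr5 had 6 to 12 counts in the MaP R245W/- tumors. The share of all genes without overlap in this comparison was not computed.

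The mucosal ligands Ccl25 and Ccl28 and the receptor Ccr9 had lower medians and did not pass. Ccl28 was 0.229 to 0.536 CPM in MaP R245W/- and 0.355 to 0.769 CPM in MaP -/- tumors (log2 fold change -0.99 ± 0.32, edgeR FDR 0.360). Ccl25 was 11.1 to 18.3 CPM against 16.1 to 23.3 CPM (-0.55 ± 0.20, FDR 0.368), and its receptor Ccr9 was 0.917 to 1.55 CPM against 1.15 to 7.47 CPM (-1.52 ± 0.51, FDR 0.360). Ccl25, Ccr9 and Cxcr5 overlap other genes on their own strand. Of the members lower in MaP R172H/- tumors, those named above had log2 fold changes of -1.72 (Ccl2), -1.60 (Ccl8), -0.72 (Ccl7), -0.16 (Ccl6), 0.22 (Ccr1) and 0.37 (Ccr2) here.

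**Figure D4:**
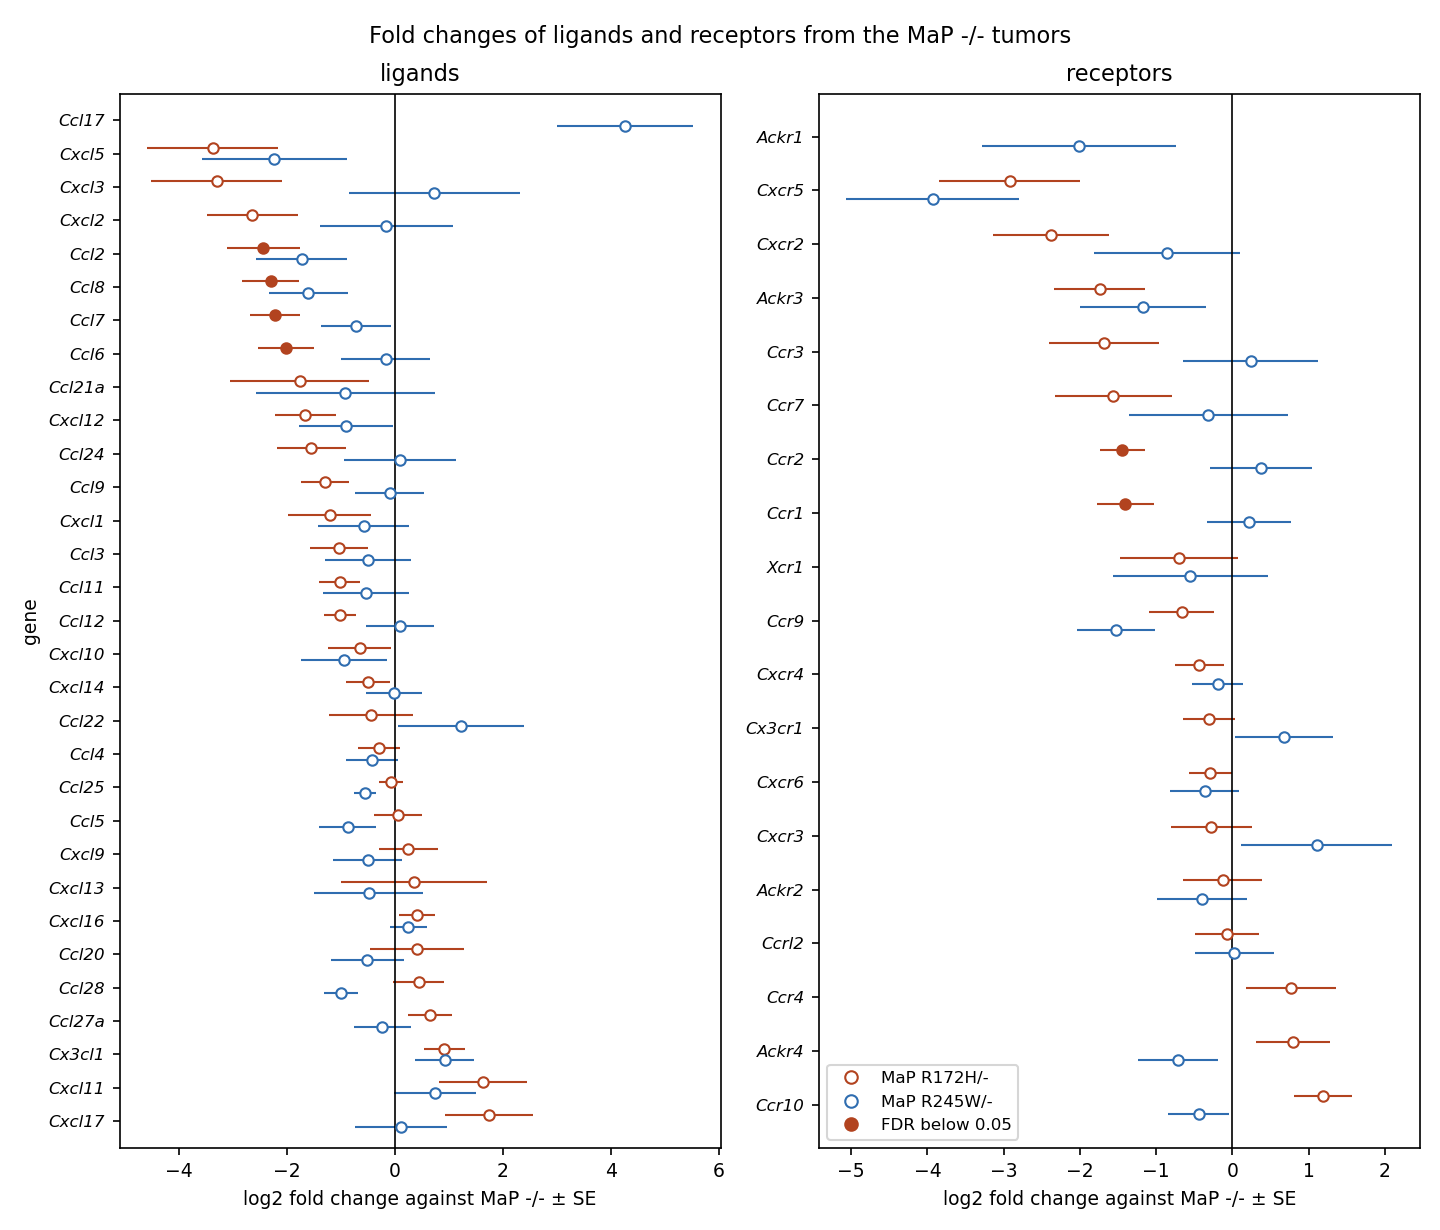
Log2 fold changes (points) with standard errors (bars) of tested ligands and receptors in MaP R172H/- (red) and MaP R245W/- (blue) tumors against MaP -/- tumors, with filled points at FDR below 0.05. The filled points, all of MaP R172H/-, lie between -1.41 and -2.43.

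The direct comparison of the mutants tests whether their changes from MaP -/- differ. Of 52 members tested in a fit of all 18 tumors, 1 was higher and 3 were lower in MaP R172H/- than in MaP R245W/- tumors at FDR below 0.05, where 2.91% of all genes were higher and 6.49% lower. The shares of members, 1 and 3 of 52, were near this background. DESeq2 called 3 higher and 5 lower, beside 5.04% and 7.32% of all genes. Ccr10, the receptor of the skin and mucosal ligands Ccl27a and Ccl28, was 0.780 to 2.78 CPM with a median of 1.16 CPM in MaP R172H/- tumors. In MaP R245W/- tumors it was 0.679 CPM in JM1564, 0.655 in JM1233, 0.383 in JM1126, 0.343 in JM1133 and 0.258 in RM0014, below every MaP R172H/- tumor. Of the 52 members this was the 1 without overlap, and the share of all genes without overlap here was not computed. The log2 fold change was 1.59 ± 0.41 with an edgeR FDR of 0.0205, at no more than 84 counts in any tumor, and Ccr10 overlaps Cntnap1 on the opposite strand.

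Ccr1 was 175 CPM in JM1126, 146 in JM1233, 57.1 in JM1133, 52.5 in RM0014 and 30.6 in JM1564, with 6 of 7 MaP R172H/- tumors below all of them (log2 fold change -1.64 ± 0.45, edgeR FDR 0.0276). Without JM1126 it was -1.26 (FDR 0.103). Ccl17 had a log2 fold change of -3.93 ± 1.08 (FDR 0.0291) that rested on JM1126, and without it the value was -1.19 (FDR 0.406). Ccr2 had -1.85 ± 0.56 (FDR 0.0460), and without JM1233 -0.97 (FDR 0.229), and it also missed the threshold with any 1 of the 7 MaP R172H/- tumors left out (FDR 0.0517 to 0.0845). It passed in 3 of 9 alternatives of the processing. Over the 18 fits with 1 tumor left out, Ccr10 passed in 16, Ccr1 in 14, Ccl17 in 13 and Ccr2 in 4. With YZ11, JM1233 and RM0014 left out, 1 of the 4 was called, Ccl17. The log2 fold changes of the other 3 were then 1.67 for Ccr10, -1.54 for Ccr1 and -1.10 for Ccr2 (edgeR FDR 0.0722, 0.126 and 0.292). Skeletal muscle markers summed to 841 CPM in JM1233 and 154 CPM in JM1133, and fibroblast markers to 8952 CPM in JM1126, values that were not tested for their part in these differences.

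Lymphoid chemokines stood out in a single tumor. In JM833-T2, Ccl21a, which guides T and dendritic cells through Ccr7, was 52.6 CPM against at most 25.4 CPM elsewhere, and Cxcr5 was 19.8 CPM against at most 1.97 CPM. Ccl19, Ccr7 and Ccr6, named after their values were seen, had their highest values there too, at 8.18, 17.4 and 2.79 CPM, against at most 1.75, 10.4 and 0.246 CPM. B cell markers summed to 493 CPM in JM833-T2 and 1.68 to 44.2 CPM in the other 17, and their part was not tested. Cxcl13, which gathers B cells, was 38.9 CPM in JM833-T2 but highest in YZ11 at 87.3 CPM, where the B cell sum was 14.1 CPM. No lymphoid ligand passed in any comparison with edgeR. Between MaP R172H/- and MaP -/- tumors the direction of Cxcl13 depended on the tool, with a log2 fold change of 0.36 (edgeR FDR 0.897) and of -2.80 (DESeq2 FDR 0.00889). Its group medians were 1.21 and 6.2 CPM. Apart from YZ11, the MaP R172H/- tumors held 0.129 to 2.86 CPM of Cxcl13. The cause of the difference between the tools was not tested.

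**Figure D5:**
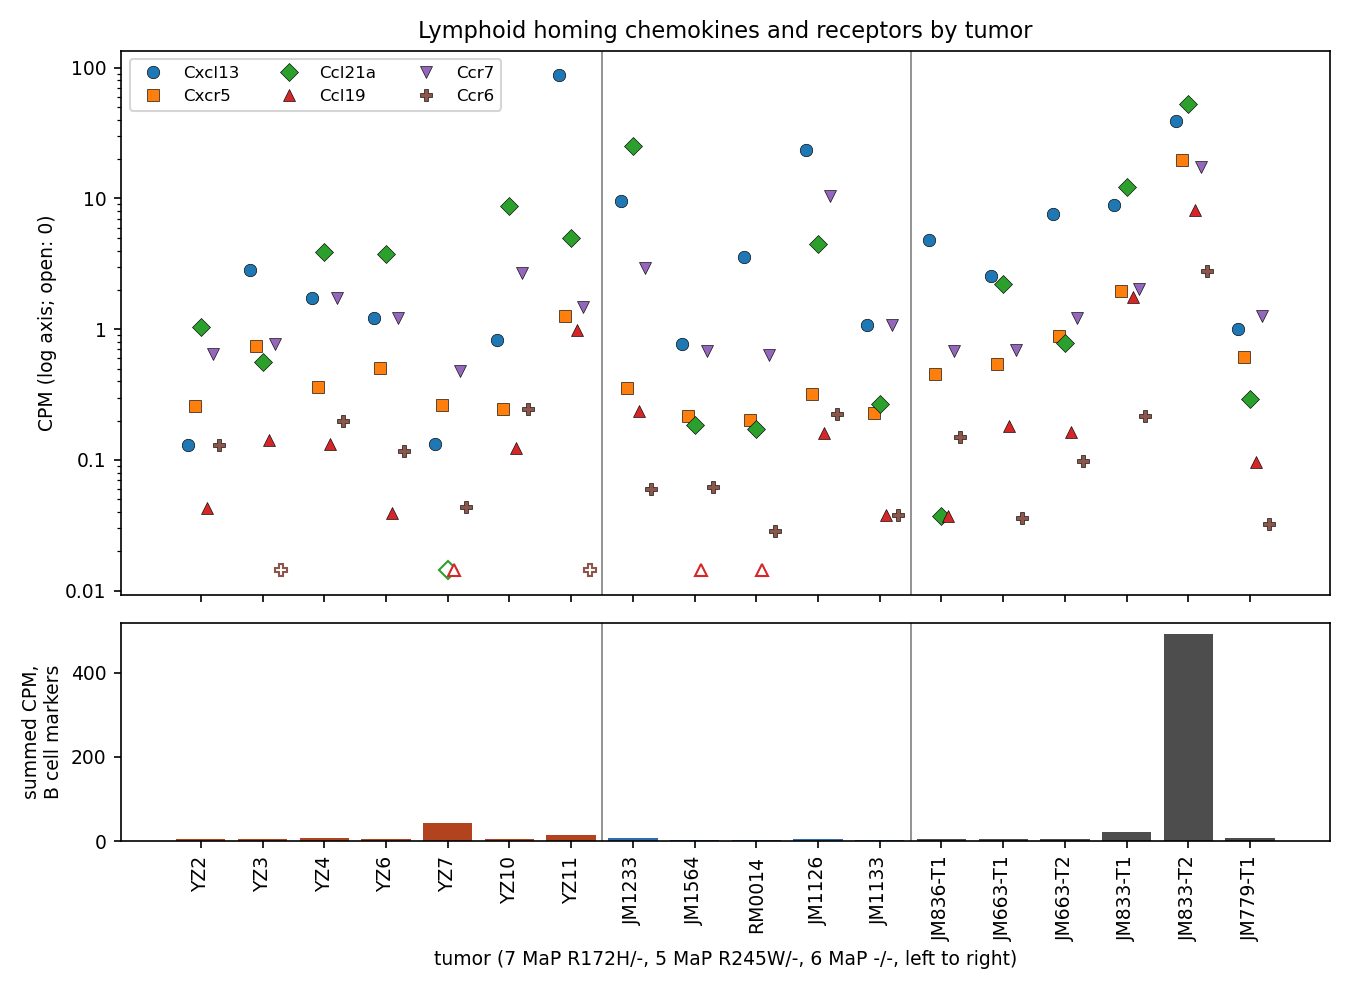
CPM on a log axis of Cxcl13, Cxcr5, Ccl21a, Ccl19, Ccr7 and Ccr6 in each tumor (upper panel, open symbols for 0) and summed CPM of 6 B cell markers (lower panel, bars). JM833-T2 is highest for all of them but Cxcl13, which is highest in YZ11.

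The highest value of a member fell most often in a few tumors. JM1126 was highest for 12 of the 52 tested members (23.1%) and for 8.15% of all genes tested, JM833-T2 for 8 (15.4% against 6.09%), JM663-T2 for 7 (13.5% against 3.06%) and JM1233 for 6 (11.5% against 6.29%). JM1126 led for Ccl6, Ccl11, Ccl17, Ccl24, Cxcl14, Cxcl16 and Ccr1 among others, and JM1233 for Ccr2, Cx3cr1, Ccl9 and Ccl12. The macrophage markers of JM1233 summed to 4539 CPM, the highest of the 18. The 7 MaP R172H/- tumors held the highest value of 12 members (23.1%) and of 36.6% of all genes.

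Tumors of 1 mouse differed as well. Between JM663-T2 and JM663-T1 the members had a median absolute log2 difference of 1.04, and all genes one of 0.47, with Ccl2 at 145 against 7.73 CPM and Cxcl5 at 237 against 12.6 CPM. Between JM833-T2 and JM833-T1 these medians were 0.88 and 0.43, with Ccr7 at 17.4 against 2.03 CPM and Ccl8 at 146 against 86.6 CPM. Levels of members and of all genes were not matched here either.

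Around the members, 55 genes of the pathway were listed, covering further chemokines, inducing cytokines, transcription factors, signaling and processing. In MaP R172H/- against MaP -/- tumors 49 were tested, with 2 higher and 5 lower, where 3.67% of all genes were higher and 4.73% lower. The smallest p-values were those of Rgs1, which damps G protein signaling and was 2.15 to 10.4 against 15.7 to 107 CPM (log2 fold change -2.77 ± 0.49, edgeR FDR 0.00458), and of Rela, an NF-kappaB subunit, 60.4 to 119 against 45.1 to 54.3 CPM (0.84 ± 0.16, FDR 0.00696). The inducing cytokine Il6 was 0.0992 to 0.690 against 0.769 to 8.72 CPM (-3.21 ± 0.63, FDR 0.00807). Gnai2, the inhibitory G protein subunit, had a log2 fold change of 0.63 (FDR 0.00990) and the platelet chemokine Pf4 one of -2.54 (FDR 0.0361). For Rgs1, Rela, Il6 and Gnai2 the groups did not overlap. Of all genes, 2.62% had every MaP R172H/- tumor below every MaP -/- tumor, and the share in the other direction was not computed.

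In MaP R245W/- against MaP -/- tumors 0 of 51 pathway genes passed by edgeR or DESeq2. At an unadjusted p below 0.05, 5 were higher and 0 lower, beside 1141 and 1386 of all 21452 genes. Between the mutants 0 were higher and 8 lower of 51 by edgeR, where 2.91% and 6.49% of all genes were. At an unadjusted p below 0.05 there were 1 and 13, beside 2556 and 3271 of all 22481 genes. DESeq2 called 0 and 7, beside 5.04% and 7.32% of all genes. Rgs1 (log2 fold change -2.50), the G protein subunit Gnai3 (-0.96), the receptor kinase Grk6 (-0.63), Mmp9 (-5.43) and the chemokine-like factor Cklf (-0.84) had the smallest p-values, with edgeR FDR from 0.00439 to 0.0269. Mmp9, a protease that trims chemokines, reached 3134 CPM in JM1126.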

How the data were processed

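Total RNA of 18 mammary tumors was depleted of ribosomal RNA and sequenced from both ends. Per the labels and the study's methods, the authors checked reads with FastQC 0.11.9, aligned them with STAR 2.7.10b to GRCm39 (mm39) and obtained expected counts per gene with RSEM 1.3.3 on GENCODE M34. The deposited expected counts were whole numbers already, and the strand setting is not given in the sources used here. Members, gene lists and tests were chosen with earlier results of these data known.

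Each mutant group was compared with MaP -/- tumors in a fit of those 2 groups, and the mutants with each other in a fit of all 18 tumors, by edgeR 4.0.16 (R 4.3.3) with TMM scaling, filterByExpr and the quasi-likelihood test. FDR was adjusted by Benjamini-Hochberg over all genes tested and called below 0.05. CPM used TMM library sizes, and RPKM the exon length of GENCODE M39. DESeq2 1.42.0 was an alternative. The counts of members include 1 receptor that is not reported here. The fits were also run on simulated counts with independent tumors and the same dispersion for all genes. That simulation does not bear on single extreme tumors or on tumors of 1 mouse. Promoter windows came from RefSeq. Members were named if called, if among the 3 smallest p-values of ligands or receptors in a comparison, if among the top 2 median RPKM of their role group, or if a listed partner of a called member. Others are named as chosen after their values were seen. The 3 libraries doubted on Trp53 were left out in an alternative added after seeing the data. P-values measure the spread between tumors, 4 of which came from 2 mice.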

Additional observations from a re-analysis of the deposited data

Results flagged for a closer look

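Among 96 groups of member values, 8 had a highest or lowest tumor set apart from the rest by Dixon's criterion, which chance meets in about 1 group in 20. In MaP R172H/- tumors these were Ccr1 with 46.5 CPM in YZ3 as the highest, and Cxcl1 with 0.614 CPM and Cxcl16 with 28.5 CPM in YZ7 as the lowest. In MaP R245W/- tumors they were Ccl25 with 18.3 CPM in JM1564 and Xcl1, an attractant of cross-presenting dendritic cells, with 1.46 CPM in JM1233, both the highest. In MaP -/- tumors they were Ccl28 with 0.355 CPM in JM779-T1 and Cxcr4 with 28.5 CPM in JM833-T1 as the lowest, and Cxcr5 with 19.8 CPM in JM833-T2 as the highest.

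The change from MaP -/- tumors differed between MaP R172H/- and MaP R245W/- tumors for 4 members by the edgeR test of the direct comparison, with log2 differences of 1.59 for Ccr10, -1.64 for Ccr1, -1.85 for Ccr2 and -3.93 for Ccl17. In these 4 values the sequencing platform and the tumor subtype cannot be told apart from genotype. The 4 were 1 higher and 3 lower of 52 members tested, near the 2.91% higher and 6.49% lower of all genes. Without JM1126 only Ccr10 was called, and with YZ11, JM1233 and RM0014 left out only Ccl17 was.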

How the results depend on the processing

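Against MaP -/- tumors 7 members were lower in MaP R172H/- tumors, and all 7 were called with DESeq2 size factors, a mean of at least 50 counts, protein-coding genes alone, tumors of 1 mouse summed and a robust fit. The DESeq2 Wald test called 16 lower and 1 higher (Ccr10), and among its calls Cxcl13 turned from 0.36 to -2.80. With all 18 tumors in 1 fit 4 were lower, Ccl2, Ccl7 and Ccl8 with Cxcr5 added, and 4 passed an absolute log2 fold change above 2. Leaving out 1 tumor gave 3 (without JM663-T2) to 10 lower and 0 to 1 higher, and the receptors' median log2 fold change ran from -0.85 to -0.26 (without JM833-T2). Against MaP -/- tumors DESeq2 called 1 member higher in MaP R245W/- tumors, Ccl17, and leaving out 1 tumor gave 0.

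Between the mutants, DESeq2 called 3 members higher and 5 lower. The higher call, Ccr10, went to 0 with a mean of at least 50 counts, with a log2 fold change above 2, with YZ11, JM1233 and RM0014 left out, and without RM0014 or JM1133, a range of 0 to 1. Of 3 lower calls, 1 was left with the 2 mutant groups alone, with a log2 fold change above 2 and with the 3 tumors left out, and leaving out 1 tumor gave 0 (without JM1126) to 3. Without 1 tumor the ligands' median ran from -0.74 to 0.0037 and the receptors' from -0.41 to 0.15, both upper ends without JM1126. With a mean of at least 50 counts the receptors' median was -0.69. The cause was not tested. No paired analysis was possible because replicate numbers only follow the order of the samples. Members of a few counts, such as Ccr10, Ccl28 and Xcl1, are limited by depth.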
